A study of Mus musculus with 15 samples.

Results

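The genes described are the collagen chains of the mouse, taken as the genes whose symbol is Col followed by a type number, the letter a and a chain number. Of 23420 mouse genes, 44 had such a symbol and 42 of these were taken, with Col7a1 and Col17a1 left out. They were placed in 4 classes: 11 fibrillar chains, 8 chains of basement membranes (the type IV chains with Col15a1 and Col18a1), 9 fibril-associated chains and 14 others. RNA of 2 tissues, the peeled epidermis and the tongue, was sequenced at postnatal day 1 in 15 libraries. Wild-type mice gave 3 epidermis and 4 tongue libraries, and knockout mice gave 4 of each. Knockouts are entered as Tmprss11a,b,c,d,e,f,g-/-, a cluster that encodes the HAT/DESC membrane serine proteases, and the others as wildtype. The strain entry names the Tmprss11 genes a to g for every library, whatever its genotype. Going by the A-numbers in the labels, 9 mice were used, and 6 of them, with all 4 knockouts, supplied both kinds of tissue. Nothing else states that replicates are independent mice, and a p-value here weighs only the spread among these libraries. Epidermis was peeled from the dermis after warming in EDTA, and no such step is given for tongue.

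Collagens are the main structural proteins of the extracellular matrix, and their chains wind around each other in a triple helix. Fibrillar collagens such as types I, III and V pack into the fibrils of connective tissue and are made mostly by fibroblasts. Type IV chains form the sheet-like network of basement membranes, which lie under epithelia and around muscle fibres, nerves and vessels. Fibril-associated collagens sit on the surface of fibrils, type VI forms beaded filaments, and further types form short networks or cross the cell membrane. In skin most collagen lies in the dermis, whereas the tongue is a muscle with its own connective tissue under the epithelium.

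The labels were checked first. All 6 epidermal keratinocyte markers (Krt1, Krt10, Krt5, Krt14, Lor and Flg2) were higher in wild-type epidermis than in wild-type tongue, and all 3 tongue keratinocyte markers (Krt13, Krt4 and Krt76) were lower. The summed level of the 6 targeted genes that were analysed was at least 349 CPM, reads scaled to library size, in every wild-type tongue library and 135 to 151 CPM in knockout tongue. In epidermis the ranges met, at 236 to 308 CPM in wild type and 109 to 250 in knockout, where KO 2 was the highest. Tmprss11b did not overlap there, at 3.54 to 3.69 and 0.332 to 1.15 CPM, and neither did Tmprss11d and Tmprss11e. The ranges of Tmprss11a, Tmprss11f and Tmprss11g did overlap in epidermis. In KO 2 Tmprss11f was at 225 CPM, against 219 to 290 in wild type. Total counts ran from 10117819 to 17819195 reads per library. Epidermis WT 1 stood apart, with 44.6% of its reads in mitochondrial ribosomal RNA against 20.1% to 23.8% in the other epidermis libraries, and with 6168 collagen reads, the fewest of any library. CPM values are on library sizes scaled by the trimmed mean of M-values (TMM) over all 15 libraries.

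The classes differ in the layout of their genes. An exon of 54 bases, which codes for a whole number of the Gly-X-Y repeats of the helix, made up 305 of the 627 internal coding exons of the fibrillar genes (48.6%). It made up 109 of 414 in the fibril-associated genes (26.3%), 30 of 348 in the others (8.6%) and 16 of 361 in the basement membrane genes (4.4%). The fibrillar genes were alike in this, from 42.9% in Col1a1 to 56.9% in Col24a1. The fibril-associated genes were not, since Col9a2 and Col9a3 had 46.7% each and Col12a1 had 6.3%. Of the 6 type IV genes, each lay head to head with another: Col4a1 with Col4a2 on chromosome 8, Col4a4 with Col4a3 on chromosome 1 and Col4a6 with Col4a5 on chromosome X. The gene models of Col4a4 and Col4a3 were 71 bases apart and those of Col4a6 and Col4a5 were 1308 bases apart, while those of Col4a1 and Col4a2 shared 22 bases.

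The sequences that bear on these pairs, and on the chain with the most RNA in tongue, are shown from RefSeq on build GRCm38.p6. Each window holds 250 bases before a RefSeq start site and 30 from it on. Capitals mark the CCAAT box, written CCAAT, the GC box, written GGGCGG, and the TATA box, written TATAAA, each searched on both strands. The motifs do not overlap in these windows. The Col3a1 window is chr1:45311288-45311567 on the plus strand, Col4a5 is chrX:141475169-141475448 on the plus strand, and Col4a6 is chrX:141474047-141474326 on the minus strand. The stretch shared by the Col4a1 and Col4a2 gene models is chr8:11312805-11312826, printed on the plus strand.
Col3a1: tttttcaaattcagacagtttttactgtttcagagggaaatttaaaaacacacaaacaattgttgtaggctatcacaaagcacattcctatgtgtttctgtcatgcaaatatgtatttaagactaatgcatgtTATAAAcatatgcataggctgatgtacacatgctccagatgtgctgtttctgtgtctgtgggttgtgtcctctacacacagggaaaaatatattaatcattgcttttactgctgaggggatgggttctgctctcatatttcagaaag
Col4a5: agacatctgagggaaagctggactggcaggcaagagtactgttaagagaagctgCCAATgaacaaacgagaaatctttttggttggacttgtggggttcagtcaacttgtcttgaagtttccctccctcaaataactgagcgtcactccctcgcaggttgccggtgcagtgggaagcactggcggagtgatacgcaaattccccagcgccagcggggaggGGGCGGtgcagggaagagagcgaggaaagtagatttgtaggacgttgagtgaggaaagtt
Col4a6: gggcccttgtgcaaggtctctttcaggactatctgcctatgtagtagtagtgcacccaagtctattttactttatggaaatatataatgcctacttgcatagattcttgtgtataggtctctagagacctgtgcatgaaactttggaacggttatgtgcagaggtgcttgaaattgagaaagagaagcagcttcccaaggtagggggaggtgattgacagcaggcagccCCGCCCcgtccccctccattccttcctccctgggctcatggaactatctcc
Col4a1 and Col4a2 shared start: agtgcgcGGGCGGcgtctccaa
The Col3a1 window holds TATAAA and neither of the other motifs. The Col4a5 window holds CCAAT and GGGCGG, and the Col4a6 window holds CCGCCC, which is GGGCGG on the other strand. The stretch shared by Col4a1 and Col4a2 holds GGGCGG. Windows were found for 33 of the 42 genes, 36 in all. GGGCGG was in 22 of these 36, against 34.7% of all 32851 windows of the same length. CCAAT was in 11 of 36, against 36.1% of all windows, and TATAAA in 4 of 36, against 13.1%. None of the 8 basement membrane windows held TATAAA. These matches describe letters and not binding sites.

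Tongue held more collagen RNA than epidermis, and of another make-up, with a ratio of 9.93 between the wild-type sums. Summed over the 42 genes, the level was 926 ± 225 CPM (SD, n = 3) in wild-type epidermis, 1147 ± 91.1 (n = 4) in knockout epidermis, 9195 ± 780 (n = 4) in wild-type tongue and 9727 ± 912 (n = 4) in knockout tongue. The ratio of tongue to epidermis in wild type was 24.5 for the fibrillar class, 18.1 for the others, 3.55 for the basement membrane class and 2.79 for the fibril-associated class. To weigh chains against each other, CPM was divided by the length of exon in kb and each class was given as a share of the collagen sum. Basement membrane chains were the largest class in wild-type epidermis at 42.4 ± 6.41%, ahead of the fibril-associated class at 24.6 ± 0.798% and the fibrillar class at 22.4 ± 6.73% (n = 3). Fibrillar chains were the largest class in wild-type tongue at 56.1 ± 0.908%, where basement membrane chains had 13.3% to 16.2% over the 4 libraries. Per kb of exon no epidermis library, of either genotype, had a fibrillar share above 35.3%, and no tongue library had one below 54.9%. Without epidermis WT 1 the wild-type epidermis shares were 42.6% for basement membrane, 24.8% for fibril-associated and 24.2% for fibrillar chains. In plain CPM the wild-type epidermis shares were 34.2 ± 5.77%, 31.4 ± 1.52% and 23.8 ± 6.88% in the same order (n = 3). Fibrillar chains then led in epidermis WT 3, at 31.7% against 28.7% for basement membrane, and in KO 1 and KO 2. With the longest transcript as length, fibrillar and basement membrane chains were level in knockout epidermis, at 35.6% and 35.8%. The lead of the basement membrane class in epidermis thus depends on the measure.

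**Figure D1:**
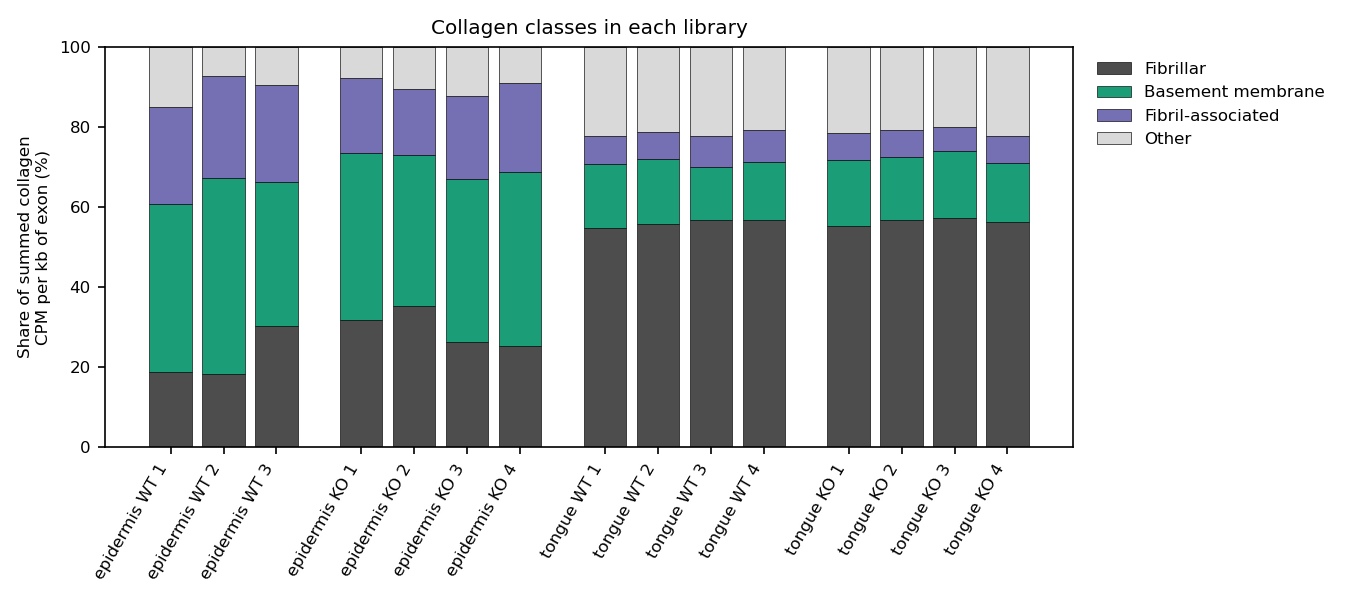
Share of each collagen class in the summed collagen CPM per kb of exon (%), 1 bar per library, with the classes stacked in the order of the key. Fibrillar chains take 18.3% to 35.3% of the bar in the 7 epidermis libraries and 54.9% to 57.3% in the 8 tongue libraries.

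The chains at the top of each tissue were different. In wild-type epidermis Col12a1 led at 14.0 CPM per kb, followed by Col18a1 at 13.5, Col4a1 at 11.1, Col4a5 at 7.54 and Col3a1 at 6.82. The SDs of the top chains, 3.28, 3.70 and 4.55 CPM per kb (n = 3), exceed the gaps between them, so that their order is not resolved. In wild-type tongue Col3a1 led at 311 ± 34.7 CPM per kb (n = 4), 29.8% of the collagen sum, and was well clear of Col6a1 at 99.0 ± 6.37. Col4a1 came next at 89.6 ± 6.36, then Col1a1 at 78.2 ± 3.54 and Col1a2 at 76.9 ± 7.43, and the last of these pairs lay within their SD. At a mean of 1 CPM or more, 30 chains were found in wild-type epidermis and 39 in wild-type tongue.

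**Figure D2:**
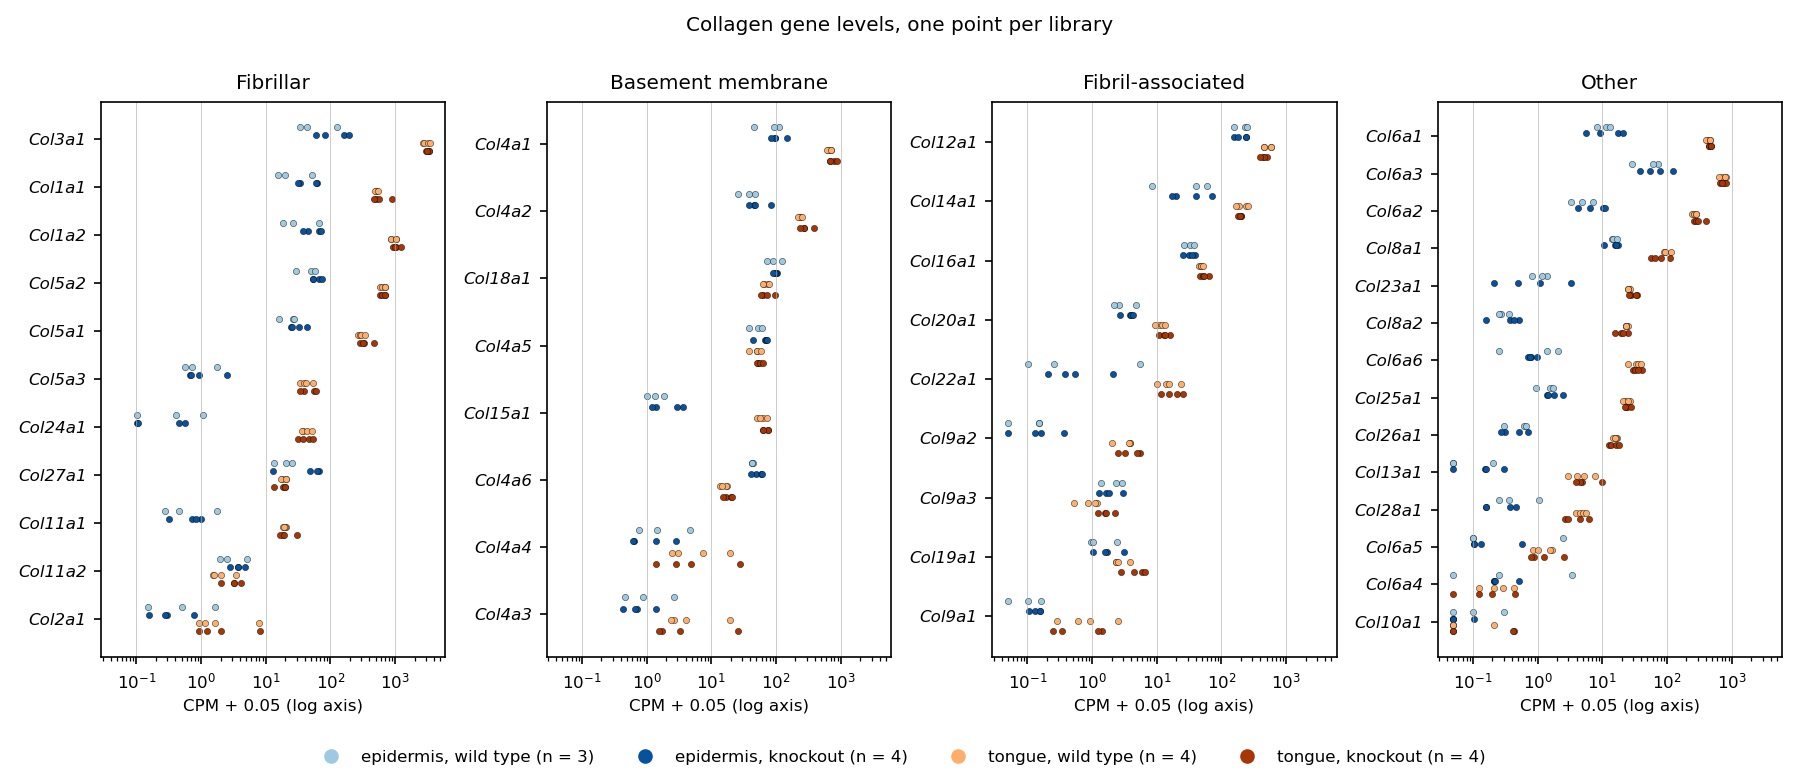
Level of each of the 42 collagen genes in CPM + 0.05 on a log axis, 1 point per library, coloured by tissue and genotype. Most genes of the fibrillar and other panels lie higher in tongue, as does Col3a1 at 33.7 to 192 CPM in epidermis and 2736 to 3436 CPM in tongue, whereas Col18a1, Col4a5 and Col27a1 overlap between tissues and Col4a6 lies higher in epidermis.

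Which chains the peeled epidermis holds beside tongue was read from the wild-type libraries, and again from the knockout libraries, which share no library with them. In wild type 39 collagen genes could be tested, 29 were lower in epidermis and 2 were higher, Col4a6 and Col9a3. Across all genes the percentage called lower was 31.6 and the percentage called higher was 32, a near-even split where the collagens went mostly one way. With the animal as a block, which rests on the 2 wild-type animals that gave both tissues, 33 were lower and 3 were higher, where 68.1% of all genes were called. That block added Col2a1, Col4a4, Col6a5 and Col19a1 to the lower and Col18a1 to the higher chains. The median log2 fold change without a block was -3.38 over the collagens and 0.03 over all genes tested. In the knockouts 33 of 39 were lower and 3 were higher, Col4a6, Col27a1 and Col18a1, where 31.1 and 32.7 were the percentages over all genes. A log2 value below 0 means lower in epidermis, and adjusted p is edgeR's quasi-likelihood value with Benjamini-Hochberg adjustment over all genes tested, called at 0.05. In bulk tissue fewer cells of a type and less RNA per cell cannot be told apart.

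**Figure D3:**
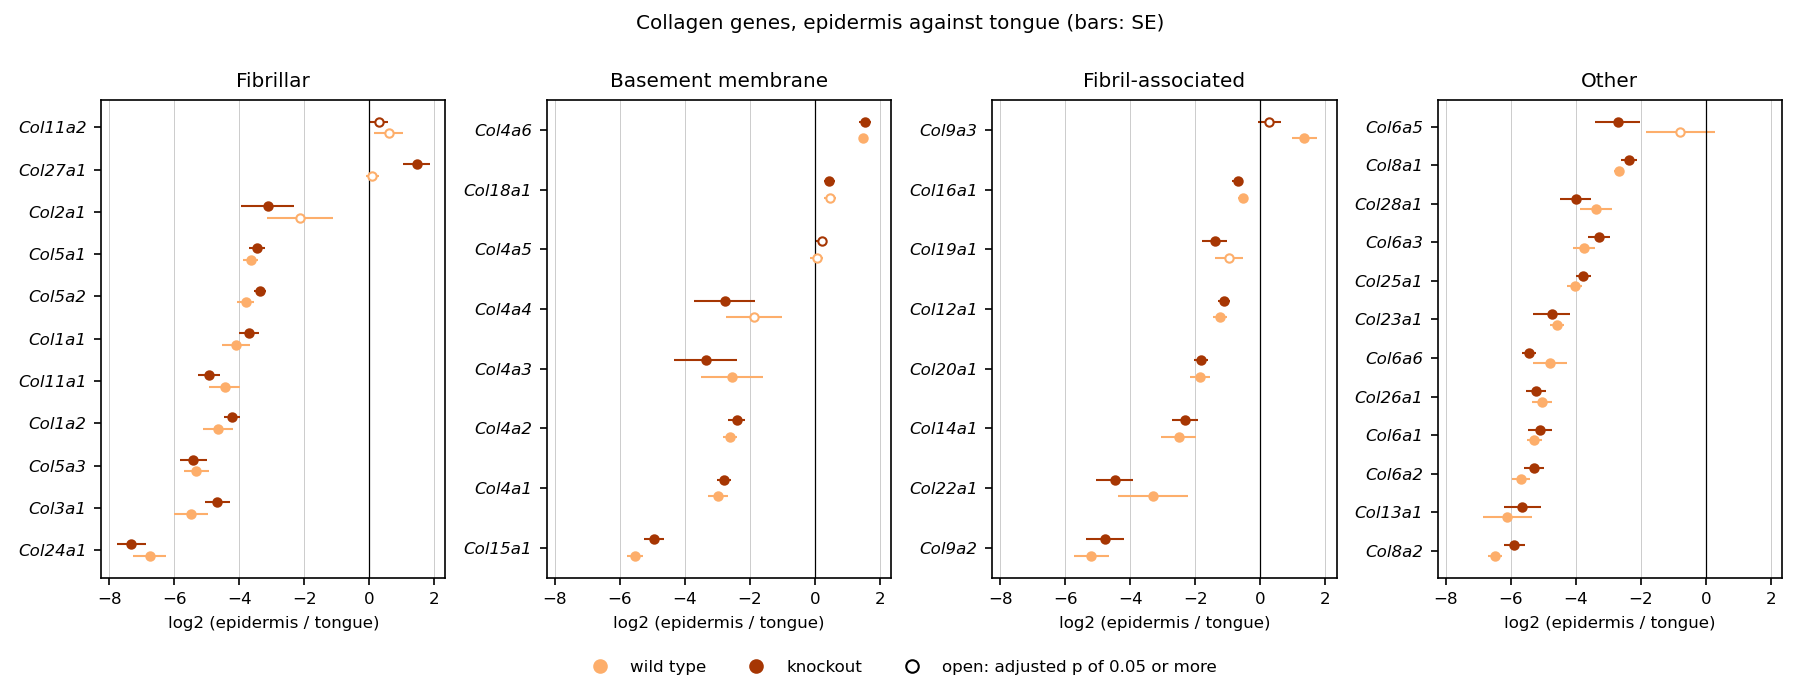
Log2 fold change of epidermis against tongue for the collagen genes tested, by class, with bars of 1 SE, in wild-type libraries (light) and knockout libraries (dark); open points have an adjusted p of 0.05 or more. Fibrillar and other chains reach -7.33 (Col24a1 in knockouts), while Col4a6 sits at 1.49 and 1.55.

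Markers of other cell types moved with this contrast. The summed level of 8 fibroblast markers was 11.6 to 27.8 CPM in the 7 epidermis libraries and 579 to 657 CPM in the 8 tongue libraries. That of 6 endothelial markers was 2.31 to 8.54 and 306 to 462 CPM, and that of 7 skeletal muscle markers was 86.5 to 696 and 26300 to 48950 CPM. Of these markers 20 of the 21 were called lower in wild-type epidermis, Thy1 being the other, where 31.6% of all genes were. The mean level of each marker in wild-type epidermis was above 0. Smaller lists went the same way for the most part: 3 of 3 tested chondrocyte, 2 of 2 osteoblast, 3 of 4 Schwann cell, 1 of 1 adipocyte and 3 of 4 pericyte markers were called lower, and 1 pericyte marker was called higher. The part of these cells in the collagen differences was not tested.

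Fibrillar chains were lower in epidermis with few exceptions. Of the 11, 8 were called lower in wild type and none higher, with a median of -4.11. Col3a1 was at 33.7, 43.2 and 124 CPM in wild-type epidermis, 160.2, 192, 82.5 and 60.2 in knockout epidermis, 2736, 2795, 3236 and 3436 in wild-type tongue and 2952, 3383, 3378 and 3082 in knockout tongue. Col3a1 forms the type III homotrimer of the thin fibrils of soft tissue, and it was 44.8-fold lower in wild-type epidermis than in wild-type tongue (log2 fold change -5.49, SE 0.53, adjusted p = 1.86e-05). Every epidermis library was below every tongue library, and among the wild types epidermis WT 3 was the highest. Col1a1 was at 15.3, 19.7 and 52.5 CPM in wild-type epidermis, 61.4, 59.8, 33.7 and 31.8 in knockout epidermis, 512, 510.1, 487 and 544 in wild-type tongue and 504, 571, 905 and 465 in knockout tongue. Col1a2 was at 18.7, 26.4 and 67.5 CPM in wild-type epidermis, 67.5, 70.5, 44.7 and 37.0 in knockout epidermis, 877, 875, 1044 and 1027 in wild-type tongue and 919, 1022, 1222 and 994 in knockout tongue. These are the 2 chains of type I collagen, the bulk fibril of skin and bone, and they were 17.2-fold and 25.0-fold lower in wild-type epidermis (log2 fold changes -4.11, SE 0.43, and -4.64, SE 0.46; adjusted p = 3.21e-05 and 2.29e-05). Both followed Col3a1 in epidermis, with WT 1 and WT 2 low and WT 3, KO 1 and KO 2 high, and tongue KO 3 had the highest Col1a1. Col5a2 was at 29.4, 50.8 and 57.5 CPM in wild-type epidermis, 53.7, 65.8, 74.4 and 54.3 in knockout epidermis, 579.6, 617, 702 and 708 in wild-type tongue and 579.8, 691, 629.7 and 700 in knockout tongue. Type V, to which Col5a2 belongs, starts the assembly of type I fibrils, and Col5a2 was 14.0-fold lower in epidermis (log2 fold change -3.80, SE 0.27, adjusted p = 2.59e-06).

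The largest change of the class was in a minor chain. Col24a1 was at 1.007, 0.0513 and 0.359 CPM in wild-type epidermis, 0.523, 0.414, 0.0538 and 0.0560 in knockout epidermis, 37.3, 36.0, 42.8 and 51.4 in wild-type tongue and 31.6, 38.2, 47.0 and 54.5 in knockout tongue. Col24a1 was 108-fold lower in wild-type epidermis (log2 fold change -6.76, SE 0.50, adjusted p = 3.47e-06), a value that rests on 17 reads in epidermis against 2046 in tongue, and the tissues did not overlap. Col27a1 was at 13.5, 20.1 and 25.7 CPM in wild-type epidermis, 48.4, 13.0, 65.3 and 61.1 in knockout epidermis, 17.9, 20.5, 17.3 and 20.3 in wild-type tongue and 18.1, 19.5, 19.8 and 13.6 in knockout tongue. Col27a1 encodes a fibrillar chain known from cartilage, and in wild type its tissues overlapped (log2 fold change 0.09, SE 0.20, adjusted p = 0.730). In the knockouts it was 2.73-fold higher in epidermis (log2 fold change 1.45, SE 0.41, adjusted p = 0.00965), although KO 2, at 13.0 CPM, was below every tongue library. Col11a2 was called in neither contrast, at log2 fold changes of 0.60 and 0.28. Col2a1, the main cartilage chain, was called lower in the knockouts, and in wild type with a block for the animal, the range of animal numbers or the replicate, or in animals A383 and A384 alone, but not otherwise.

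Basement membrane chains split by the company they keep. The ubiquitous network chains Col4a1 and Col4a2 were lower in epidermis, the pair Col4a5 and Col4a6 was not, and Col18a1 was close to even. Col4a1 was at 45.4, 112 and 92.1 CPM in wild-type epidermis, 146, 97.3, 98.2 and 83.4 in knockout epidermis, 644, 709.5, 614 and 707 in wild-type tongue and 696, 781, 863 and 681 in knockout tongue. Col4a2 was at 25.96, 47.9 and 38.4 CPM in wild-type epidermis, 82.5, 46.4, 46.9 and 38.6 in knockout epidermis, 233, 238, 218 and 251 in wild-type tongue and 269, 272, 383.6 and 231 in knockout tongue. Col4a1 was 7.94-fold lower in wild-type epidermis (log2 fold change -2.99, SE 0.30, adjusted p = 2.61e-05) and Col4a2 6.17-fold (log2 fold change -2.63, SE 0.21, adjusted p = 6.51e-06), and in neither gene did any epidermis library reach a tongue library. Reads from the stretch the gene models share cannot be assigned to either gene without strand.

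Col4a6 was at 43.1, 44.3 and 42.1 CPM in wild-type epidermis, 48.8, 41.2, 58.2 and 59.9 in knockout epidermis, 17.6, 13.5, 16.9 and 14.8 in wild-type tongue and 17.0, 14.9, 20.3 and 20.5 in knockout tongue. Col4a6, whose chain joins that of Col4a5 in the network under the epidermis and around smooth muscle, was 2.80-fold higher in wild-type epidermis (log2 fold change 1.49, SE 0.14, adjusted p = 1.69e-05). In the knockouts it was 2.93-fold higher (log2 fold change 1.55, SE 0.18, adjusted p = 1.44e-05), and the lowest epidermis library stood above the highest tongue library. Col4a5 was at 38.2, 53.3 and 60.4 CPM in wild-type epidermis, 44.3, 66.5, 70.1 and 71.6 in knockout epidermis, 51.0, 38.1, 50.2 and 59.3 in wild-type tongue and 52.1, 50.2, 56.6 and 62.6 in knockout tongue. Col4a5, its head-to-head neighbour, overlapped between tissues and was called in neither genotype (log2 fold changes 0.05, with a 95% interval of -0.39 to 0.49, and 0.22, with an interval of -0.15 to 0.59). Without epidermis KO 1, however, Col4a5 was called higher in knockout epidermis. WT 1 and KO 1 were its lowest epidermis libraries. Per kb of exon there were 1.05 to 1.92 units of Col4a5 for each of Col4a6 in the 7 epidermis libraries and 3.31 to 4.76 in the 8 tongue libraries. The pair thus stood nearer to equal RNA in epidermis, in each of its libraries. Col4a5 and Col4a3 were described after their values had been seen, as were Col4a4, Col2a1, Col11a2 and Col13a1.

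Col18a1 was at 71.6, 123 and 89.7 CPM in wild-type epidermis, 106, 99.2, 97.1 and 89.8 in knockout epidermis, 64.4, 74.3, 62.2 and 78.8 in wild-type tongue and 63.2, 72.7, 98.3 and 58.9 in knockout tongue. Col18a1 encodes the precursor of endostatin, found in most basement membranes, and its tissues overlapped. Its gene model overlaps that of Slc19a1, so its reads are uncertain without strand. It was not called in wild type (log2 fold change 0.46, SE 0.19, adjusted p = 0.0561) and was just past the threshold in the knockouts (log2 fold change 0.45, SE 0.17, adjusted p = 0.0407). It was called in wild type as well without epidermis WT 1 (log2 fold change 0.62, adjusted p = 0.00107) and with the animal as a block (log2 fold change 0.59, adjusted p = 0.000745), and in the knockouts the call was lost when any one of KO 1, KO 2 and KO 3 of epidermis or KO 1, KO 2 and KO 4 of tongue was left out (adjusted p from 0.0682 to 0.133). The knockout call was also lost with DESeq2 (adjusted p = 0.0812), upper-quartile factors or a block for the range of animal numbers. Leaving out mitochondrially encoded genes, or taking animals A386 and A387 alone (log2 fold change 0.22), lost it too. It was kept with limma-voom, no filter or the animal as a block. Col15a1 was at 1.79, 0.974 and 1.28 CPM in wild-type epidermis, 2.88, 3.56, 1.35 and 1.18 in knockout epidermis, 62.0, 51.1, 57.6 and 71.7 in wild-type tongue and 63.8, 74.9, 74.0 and 62.1 in knockout tongue. Col15a1, its relative among the multiplexins and known from the basement membranes of muscle and capillaries, was 46.1-fold lower in wild-type epidermis (log2 fold change -5.53, SE 0.25, adjusted p = 2.04e-07), with no overlap. These relatives were thus about even in tissue in the case of Col18a1 and far apart in that of Col15a1.

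Fibril-associated chains had the class median nearest to 0 between wild-type tissues, at -1.56. Col12a1 was at 157, 231 and 252 CPM in wild-type epidermis, 159, 181, 236 and 238 in knockout epidermis, 454, 449, 588 and 575 in wild-type tongue and 442, 510.5, 454 and 393 in knockout tongue. Col14a1 was at 8.51, 40.6 and 60.6 CPM in wild-type epidermis, 72.6, 20.1, 40.6 and 17.2 in knockout epidermis, 189.9, 170.1, 238 and 253 in wild-type tongue and 182, 197, 199.6 and 193 in knockout tongue. Both chains bind the surface of type I fibrils, and Col12a1 was 2.38-fold lower in wild-type epidermis (log2 fold change -1.25, SE 0.22, adjusted p = 0.000784) and Col14a1 5.71-fold lower (log2 fold change -2.51, SE 0.53, adjusted p = 0.00276). The spread of Col14a1 in epidermis was wide, from WT 1 at the bottom to KO 1 at the top, while Col12a1 kept to a narrow band. Col16a1 was at 32.7, 37.0 and 26.6 CPM in wild-type epidermis, 31.6, 39.0, 25.3 and 35.6 in knockout epidermis, 44.3, 47.7, 47.5 and 51.4 in wild-type tongue and 46.2, 51.8, 64.8 and 54.1 in knockout tongue. Col16a1, known from the zone under the epidermis, was 1.46-fold lower in wild-type epidermis (log2 fold change -0.55, SE 0.15, adjusted p = 0.00965), the smallest called change among the collagens in that contrast.

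The chains of type IX, which sit on the type II fibrils of cartilage, did not move together. Col9a2 was at 0, 0.102 and 0.102 CPM in wild-type epidermis, 0.314, 0.0829, 0 and 0.112 in knockout epidermis, 3.83, 3.88, 2.02 and 3.71 in wild-type tongue and 3.15, 2.46, 5.37 and 4.91 in knockout tongue. Col9a3 was at 1.34, 2.82 and 2.31 CPM in wild-type epidermis, 2.98, 1.57, 1.78 and 1.23 in knockout epidermis, 1.15, 0.808, 1.04 and 0.484 in wild-type tongue and 1.53, 1.57, 2.19 and 1.17 in knockout tongue. Col9a2 had 4 reads in all in wild-type epidermis and was 36.7-fold lower there (log2 fold change -5.20, SE 0.54, adjusted p = 3.13e-05). Col9a3 was 2.54-fold higher in wild-type epidermis (log2 fold change 1.35, SE 0.39, adjusted p = 0.0124) and was not called in the knockouts (log2 fold change 0.28, SE 0.35, adjusted p = 0.511). Without epidermis WT 2 its call in wild type was lost (log2 fold change 1.10, adjusted p = 0.0584). The gene model of Col9a3 overlaps that of Tcfl5, so its reads are uncertain without strand. Col19a1 was at 2.35, 0.923 and 0.974 CPM in wild-type epidermis, 0.994, 1.66, 3.01 and 1.51 in knockout epidermis, 2.30, 2.26, 2.46 and 3.79 in wild-type tongue and 2.76, 4.33, 5.97 and 6.51 in knockout tongue. Col19a1, known from basement membrane zones of muscle and nerve, was called lower in knockout epidermis (log2 fold change -1.41, SE 0.38, adjusted p = 0.00667) and not in wild type (log2 fold change -0.97, SE 0.42, adjusted p = 0.0674), where it was called without epidermis WT 1 (log2 fold change -1.49, adjusted p = 0.000953) and with the animal as a block (log2 fold change -1.69).

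All 12 tested chains of the remaining class were below 0 in wild type, 11 of them called, with a median of -4.69. Col6a1 was at 8.28, 11.2 and 13.3 CPM in wild-type epidermis, 17.7, 21.2, 9.26 and 5.54 in knockout epidermis, 414, 406, 456 and 459.8 in wild-type tongue and 449.5, 446, 479 and 485 in knockout tongue. Col6a2 was at 3.25, 4.82 and 7.02 CPM in wild-type epidermis, 10.2, 10.9, 6.35 and 4.20 in knockout epidermis, 243, 259, 281 and 285 in wild-type tongue and 262, 278, 395 and 299 in knockout tongue. Col6a3 was at 72.2, 28.9 and 61.2 CPM in wild-type epidermis, 38.4, 53.96, 124 and 78.1 in knockout epidermis, 722, 629, 812 and 797 in wild-type tongue and 655, 765, 809 and 721 in knockout tongue. These make the common trimer of type VI, the beaded filament between fibrils and around cells, and they were 38.9-fold, 51.2-fold and 13.4-fold lower in wild-type epidermis (adjusted p = 1.59e-07, 2.94e-07 and 1.37e-05). The fold was smallest for Col6a3, a difference between genes that was not tested. Per kb of exon the level of Col6a3 was 0.533 to 0.653 of that of Col6a1 in the 8 tongue libraries, whereas in epidermis it was 3.19, 0.947 and 1.69 in the wild types and 0.792, 0.931, 4.89 and 5.16 in the knockouts. Every epidermis library thus had relatively more Col6a3 than any tongue library, and the excess was largest in WT 1, KO 3 and KO 4. Col8a2 was at 0.224, 0.308 and 0.205 CPM in wild-type epidermis, 0.471, 0.332, 0.377 and 0.112 in knockout epidermis, 25.0, 23.0, 23.1 and 22.9 in wild-type tongue and 19.5, 25.2, 15.7 and 20.6 in knockout tongue. Col8a2, a short-chain network collagen, was 89.7-fold lower in wild-type epidermis (log2 fold change -6.49, SE 0.23, adjusted p = 8.37e-08), on 12 reads in epidermis against 1138 in tongue. The transmembrane chains Col23a1 and Col25a1 and the chain Col26a1 were lower by log2 fold changes of -4.58, -4.03 and -5.04. Col10a1, Col6a4 and Col9a1 had too few reads for the test in either genotype.

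Other chains of 1 trimer were compared in the same way. The ratio of Col4a1 to Col4a2 per kb was 1.55 to 2.13 in epidermis and 1.99 to 2.64 in tongue, so that the ranges met. Col1a1 to Col1a2 was 1.409 to 1.72 in epidermis and 0.883 to 1.403 in tongue, with tongue KO 3 at the top of its range. Those ranges did not meet, by a narrow margin. Col5a1 to Col5a2 was 0.377 to 0.903 in epidermis and 0.482 to 0.859 in tongue. Col6a1 to Col6a2 was 2.51 to 4.85 in epidermis and 2.30 to 3.255 in tongue, and the ranges of both pairs met. Such a ratio depends on the length taken for each gene, while its comparison between libraries does not.

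Genes that work with collagens were counted from lists. Across all genes tested between wild-type tissues, 31.6% were called lower in epidermis and 32% higher, with a median log2 fold change of 0.03. Of 21 genes of collagen folding and modification, 16 were called lower in wild-type epidermis and none higher, with a median of -1.83. Among them Serpinh1, the collagen chaperone HSP47, went from 155 ± 25.0 CPM in tongue (n = 4) to 24.5 ± 10.7 in epidermis (n = 3), a log2 fold change of -2.63. Of 13 genes of procollagen processing and cross-linking 8 were lower, with Lox at -6.71 and Loxl2 at -6.77, and 1 was higher, Adamts14 at 2.57, a procollagen N-proteinase. All 11 tested partners of fibril assembly were lower, Postn at -2.47, Sparc at -3.06 and Fn1 at -1.54 among them. Of 10 tested collagen-degrading enzymes and inhibitors 8 were lower and none higher.

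Of 16 partners of the basement membrane 6 were higher in wild-type epidermis and 8 were lower, where 32% and 31.6% of all genes were, so that the share of higher genes was near that of the genome. Lama3 and Lamb3, laminin chains of the basement membrane under the epidermis, were higher by log2 fold changes of 2.08 and 1.60, and Lama5 was higher by 2.86. Lama2 and Lama4, chains of muscle and vessel laminins, were lower at -6.57 and -5.02. Of 9 collagen receptors 2 were higher, Ddr1 at 0.92 and Lair1 at 1.35, and 6 were lower, Itgb1 at -2.60 and Ddr2 at -4.68 among them.

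What the loss of the proteases does to collagen RNA was read within each tissue. In epidermis 30 collagen genes were tested and none was called, where 0.0% of all 16073 genes were called. The count at an unadjusted p under 0.05 was 1 collagen, against 187 genes in all (1.16%), and DESeq2 and limma-voom called none of the collagens either. Of the 30, 23 lay above 0, with a median log2 fold change of 0.25 against 0.00 for all genes tested. By class the medians were 0.41 for fibrillar chains, 0.27 for basement membrane chains, 0.26 for the others and 0.01 for the fibril-associated chains. Col3a1 was at 0.85 with a 95% interval of -0.41 to 2.12. Without epidermis WT 1 the ratio of knockout to wild type in summed collagen CPM went from 1.238 to 1.098. It went from 1.625 to 1.35 for fibrillar and from 1.202 to 1.065 for basement membrane chains. For fibril-associated chains it went from 0.970 to 0.855, and for the others it rose from 1.247 to 1.371. The smallest p was that of Col27a1 (log2 fold change 1.23, SE 0.51, adjusted p = 1.0 by edgeR), followed by Col5a2 (log2 fold change 0.41, 95% interval -0.15 to 0.96).

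**Figure D4:**
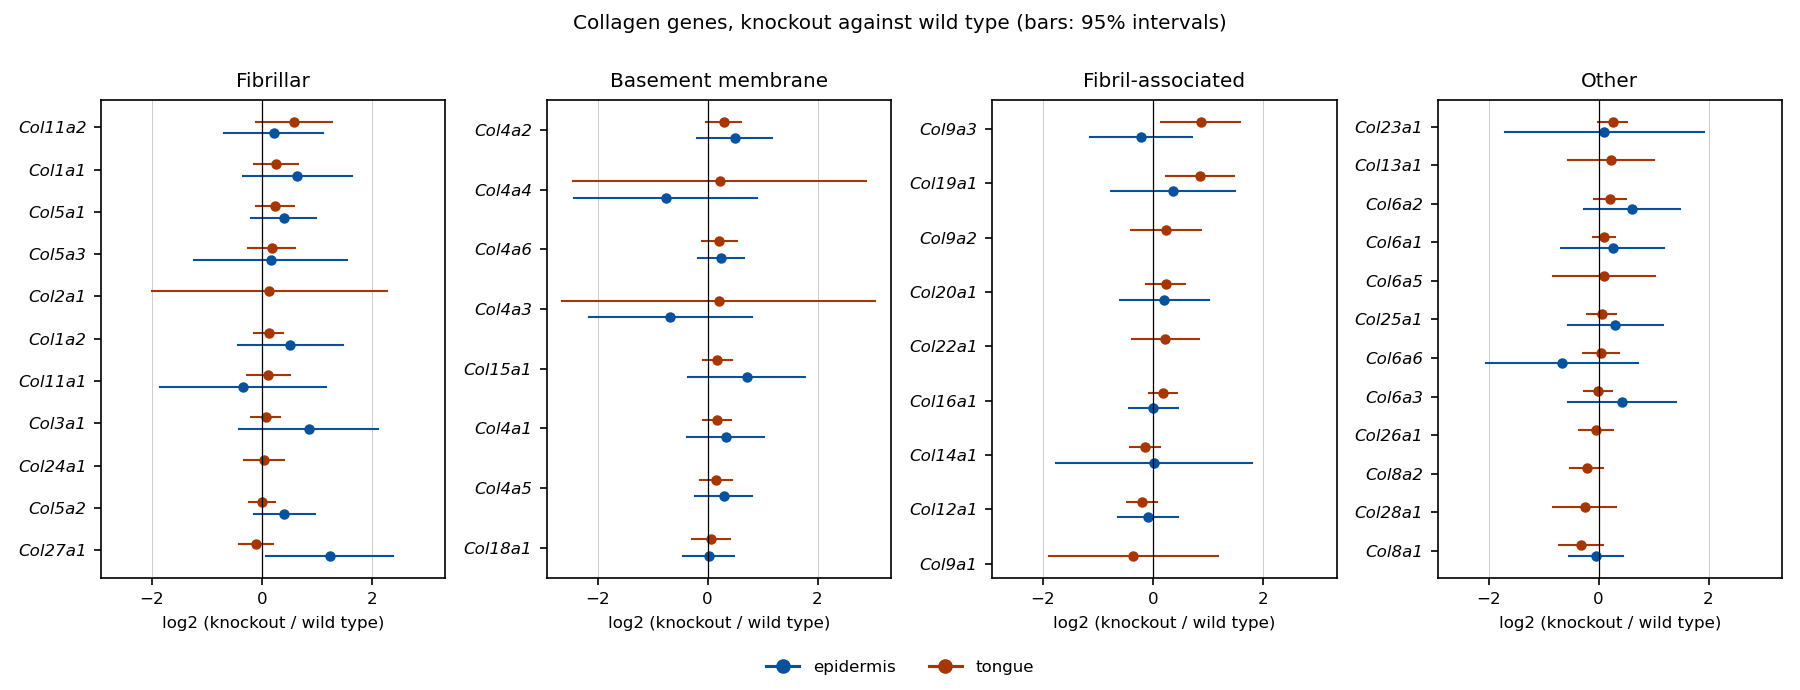
Log2 fold change of knockout against wild type for the collagen genes tested, by class, in epidermis (blue) and tongue (brown), with 95% intervals. All adjusted p-values are 0.05 or more, and the epidermis intervals are wide, as for Col14a1 at -1.76 to 1.79.

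Col27a1 was high in 3 of the 4 knockout epidermis libraries, at 48.4, 65.3 and 61.1 CPM, against 13.0 in KO 2 and 13.5 to 25.7 in wild type. In the 4 epidermis libraries of animals A383, A384, A386 and A387 alone it was called higher in knockouts (log2 fold change 1.46, adjusted p = 0.000231), where 3.83% of all genes were called. With the ranges of A-numbers as a block it was not called (log2 fold change 1.57, adjusted p = 0.0697). Its effect differed from that in tongue by 1.34 on the log2 scale (SE 0.51, adjusted p = 1.0 in edgeR's interaction test), and 0 of 40 collagens passed that test, where the percentage of all genes called was 0.0 and 299 genes (1.67%) had an unadjusted p under 0.05. Col9a3 came next at -1.08 (SE 0.54, adjusted p = 1.0).

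Class sums in epidermis overlapped between genotypes in all 4 classes. The share of the fibril-associated class per kb did not, at 24.1% to 25.5% in wild type and 16.6% to 22.3% in knockouts, which is a description with no test. Fibroblast markers summed to 11.6 to 21.02 CPM in wild-type and 18.5 to 27.8 in knockout epidermis, with 5 of 6 tested markers above 0 and none called. All 7 skeletal muscle markers lay above 0 and none was called, with a summed level of 95.3 to 249 CPM in wild type and 86.5 to 696 in knockouts, where KO 2 was the highest. Adipocyte markers did not overlap, at 5.23 to 8.77 CPM in wild type and 8.90 to 23.5 in knockouts, with 3 of 3 tested above 0. All 4 tested endothelial and all 3 tested pericyte markers lay above 0. Of 3 tested Schwann cell markers 1 lay above 0 and 2 lay below, and none of these markers was called. The part of these, and of the RNA of WT 1, in the epidermis values was not tested.

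In tongue 40 collagen genes were tested and none was called, where the percentage of all genes called was 0.0127. DESeq2 and limma-voom called no collagen either. An unadjusted p under 0.05 was found for 2, Col19a1 and Col9a3, against 496 of 15741 genes in all (3.15%). Col19a1 was at 4.89 ± 1.70 CPM in knockouts and 2.70 ± 0.732 in wild type (log2 fold change 0.85, SE 0.28, adjusted p = 0.939; n = 4 each by edgeR), and Col9a3 at 1.61 ± 0.424 and 0.872 ± 0.295 (log2 fold change 0.87, SE 0.33, adjusted p = 0.939; n = 4 each by edgeR). Col9a3 was the single collagen whose genotypes did not overlap, all knockouts being higher, where 0.858% of all genes were so placed. Of the 40, 30 lay above 0, with a median log2 fold change of 0.14 against 0.01 for all genes tested. By class the medians were 0.225 for fibril-associated, 0.19 for basement membrane, 0.12 for fibrillar and 0.05 for other chains. All 8 basement membrane chains lay above 0, with a range of 0.07 to 0.30, as did 9 of 11 fibrillar chains. All 8 basement membrane chains overlapped between genotypes. The tongue intervals were narrower than those of epidermis for the abundant chains: Col3a1 lay between -0.20 and 0.33, Col4a1 between -0.07 and 0.42 and Col6a3 between -0.26 and 0.25. With each library left out in turn, epidermis WT 1 included, no collagen was called between genotypes in either tissue. No list of partner genes held a called gene in either tissue.

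Some chains stood high in libraries of 1 range of animal numbers, in both genotypes. The labels number the animals, and each group holds 1 library of an animal numbered A325, A328 or A329, but nothing says what the numbers mean. The pattern was noticed after the values had been seen and is given as levels with no test. Col4a3 and Col4a4, whose chains join that of Col4a5 in the network of kidney and lung, stood high in these libraries. In tongue Col4a4 was at 19.1 CPM in WT 1 and 27.9 in KO 1, against 1.35 to 7.43 in the other 6 libraries, and Col4a3 was at 19.1 and 25.4 against 1.54 to 4.04. In epidermis Col4a4 was at 4.70 in WT 1 and 2.77 in KO 1 against 0.560 to 1.38 in the other 5, and Col4a3 at 2.57 and 1.36 against 0.377 to 0.820. The knockout libraries of both tissues came from 1 animal, A328, and the wild-type libraries from A325 (epidermis) and A329 (tongue). Between wild-type tissues Col4a3 was called lower in epidermis (log2 fold change -2.55, SE 0.94, adjusted p = 0.0399) and Col4a4 was not (log2 fold change -1.87, SE 0.87, adjusted p = 0.0887) unless a block was used or animals A383 and A384 were taken alone. The Col4a3 call was lost when any one of the 3 epidermis libraries or tongue WT 1 was left out, and with tongue WT 1 out 28 collagens were called lower.

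**Figure D5:**
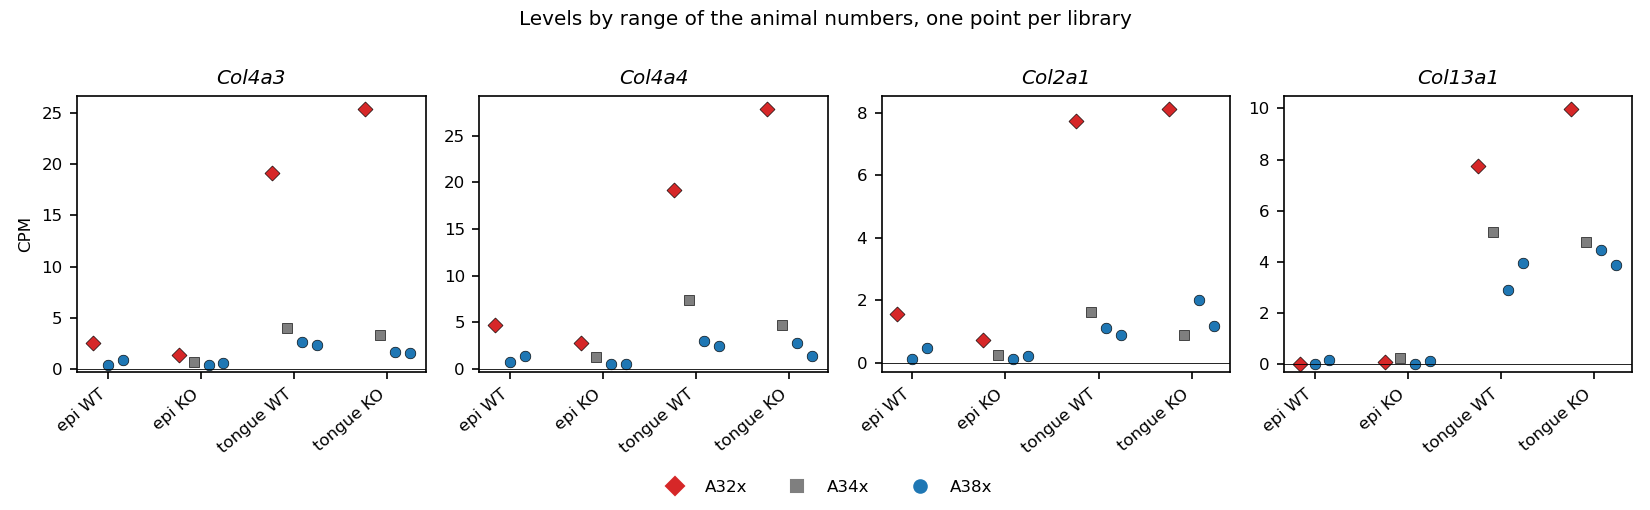
CPM of Col4a3, Col4a4, Col2a1 and Col13a1 in each library, grouped by tissue and genotype, with symbols for the range of the animal number (A32x, A34x and A38x). In tongue the A32x libraries of either genotype stand above all others in each of the 4 genes.

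Col2a1 did likewise, at 7.75 and 8.14 CPM in these tongue libraries against 0.888 to 1.99 in the others, and Col13a1, a transmembrane chain of the neuromuscular junction, was at 7.75 and 9.98 against 2.91 to 5.17. Of the 39 collagens with a mean of 1 CPM or more in tongue, 6 were higher there without overlap, where 9.39% of all 15150 such genes were. In epidermis 3 of 28 collagens were, where 17.3% of all 14872 genes at that level were. That mean was taken over all libraries of the tissue, these included, so the minimum helps to set the count. Col22a1 passed it in epidermis only through WT 1 and KO 1, at 5.37 and 2.04 CPM against 0.0513 to 0.504 in the others. Higher in both tissues, without overlap and more than 2-fold in the means, were 4 collagens, Col2a1, Col4a3, Col4a4 and Col6a5, and 30 genes in all (0.198%). For this count the minimum of 1 CPM was applied in tongue alone. In epidermis Col6a5 had 22 reads in WT 1 and 10 in KO 1, against 1 in each other library. Col2a1 had 14 in both, against 2 to 9 in the others. Epidermis WT 1 is also the library that stood apart in mitochondrial ribosomal RNA. Marker lists differed too. In these tongue libraries the chondrocyte markers summed to 10.9 and 10.1 CPM, against 5.25 to 8.51 in the others, and the endothelial markers to 412 and 462 CPM, against 306 to 360.2. The skeletal muscle markers were lower there, at 26300 and 28890 CPM against 33100 to 48950. The part of these cells was not tested. The wide intervals of Col4a3, Col4a4 and Col2a1 between genotypes in tongue, such as -2.64 to 3.05 for Col4a3, hold this spread.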

How the data were processed

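The data are RNA-seq of 15 libraries from 9 animals. The deposited tables hold raw read counts per gene and a normalised signal per library, which for genes over 500 reads was the count times a constant to within 0.017%, so the counts were used. The submitters' processing notes name STAR 2.5.2a and the builds GRCm38.p3 and mm10. How the authors counted reads, and whether by strand, is not given in the sources used. Of 23422 entries, 2 that are not mouse genes were left out.

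Genes passing filterByExpr (minimum count 10) were scaled by TMM and fitted per comparison with edgeR 4.0.16 (R 4.3.3, quasi-likelihood, two-sided), and p-values were adjusted over all genes tested by Benjamini-Hochberg with a threshold of 0.05. The procedure was tested on simulated data. Alternatives were limma 3.58.1 voom, DESeq2 1.42.0, upper-quartile factors, no filter, other blocks and left-out libraries. Exon lengths came from GENCODE M21 (GRCm38), which held 23337 of the genes and lacked 83; intervals are at 95%.

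Members and gene lists were chosen with earlier results of these data known. Values by library are given for the 3 chains of highest level per kb in each class, the largest called wild-type tissue change per class and direction with a mean of at least 1 CPM in a group, and the 2 smallest p-values of each knockout comparison without a call. The longest-transcript length and the class shares without epidermis WT 1 were added after the data were seen. Same-numbered epidermis libraries of the genotypes deviated together (correlations 0.627, 0.136 and 0.516), and those of tongue did not in every pair (0.596, 0.111, -0.157 and 0.246). Same-numbered knockout tissues come from the same animals, and their correlations were 0.064, 0.221, -0.183 and 0.16. Same-numbered wild-type tissues come from different animals (0.086, 0.102 and 0.125). The tissues of wild-type animals that gave both were not correlated in this way.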

Additional observations from a re-analysis of the deposited data

Results flagged for a closer look

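Groups of 4 libraries were checked for a library far from the others, in 75 groups of values, and 3 were picked out, where chance picks about 1 in 20. All 3 lie in wild-type tongue. Col9a2 was low in WT 3, at 2.02 CPM against 3.71 to 3.88 in the other libraries. Col8a2 was high in WT 1, at 25.0 CPM against 22.9 to 23.1. Col19a1 was high in WT 4, at 3.79 CPM against 2.26 to 2.46.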

How the results depend on the processing

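Of the class sums, shares, chain ratios and counts of calls, 202 values stayed within their limits under the alternatives and 50 moved; of the values of named genes 755 kept direction and call, 9 gained a call, 13 lost one and 3 turned direction. Animals A383 to A387 alone gave 1 collagen called higher in knockout epidermis, Col27a1. Between wild-type tissues the replicate block joins libraries of different animals. With that block Col9a3 was lost there and 1 collagen was called higher (Col9a3 adjusted p = 0.0868 by edgeR). The replicate block gave no collagen call in either knockout comparison. With the animal as block the knockout tissue contrast kept its 3 higher and 33 lower collagens. Leaving out 1 library at a time gave 1 to 3 higher and 28 to 31 lower collagens between wild-type tissues (1 higher without epidermis WT 2, 3 without epidermis WT 1), 2 to 3 higher and 32 to 33 lower between knockout tissues, and 0 between genotypes. Between wild-type tissues Col27a1 ran from -0.16 (without epidermis WT 3) to 0.28 over the left-out libraries. Between knockout tissues Col9a3 ran from -0.025 (without epidermis KO 1) to 0.45, and it was -0.13 in animals A386 and A387 alone. Col27a1 was not called in these wild-type fits, nor Col9a3 in these knockout fits, and the cause was not tested. In the order wild-type epidermis, knockout epidermis, wild-type tongue and knockout tongue, CPM without mitochondrially encoded genes, which has a smaller total by construction, gave 354, 541, 8635 and 9080.0 for fibrillar, 487, 550, 1724 and 1938 for basement membrane, 452, 409, 1251 and 1123 for fibril-associated and 146, 166, 2580.0 and 2618 for other chains. On the library total the basement membrane sum was 422 in knockout epidermis and 1040.0 in wild-type tongue, the fibril-associated sum 314 in knockout epidermis and 686 in knockout tongue, and the other sum 1601 in knockout tongue. With the longest transcript as length, the fibrillar share was 35.6% in knockout epidermis, 63.9% in wild-type and 64.1% in knockout tongue, the basement membrane share 35.8%, 11.5% and 12.3%, the fibril-associated share 6.15% and 5.43% in tongue and the other share 18.4% and 18.1% in tongue. The same length gave ratios of 0.704, 0.760, 0.488 and 0.522 for Col1a1 to Col1a2, 2.70, 1.94, 1.95 and 1.84 for Col6a1 to Col6a2, 1.98 in knockout epidermis and 2.77 in wild-type tongue for Col4a1 to Col4a2, 0.691 and 0.644 in tongue for Col6a3 to Col6a1, 0.405 in wild-type epidermis and 0.362 and 0.427 in tongue for Col5a1 to Col5a2, and 3.12 in knockout tongue for Col4a5 to Col4a6. Depth limits the chains with few epidermis reads, such as Col9a2 with 4.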
